A study of Homo sapiens with 20 samples.

Results

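Replication-dependent histone genes supply the histone proteins that package newly copied DNA. The genes were taken by symbol, in 5 classes: the linker histones H1-1 to H1-6 and the genes of the H2A, H2B, H3 and H4 classes whose symbols carry a C and a number (H2AC8, H4C14). Of 17687 human genes with a named probe set on the array, 61 met the rule: 6 of H1, 14 of H2A, 17 of H2B, 9 of H3 and 15 of H4. Each was read by 1 probe set. The rule used no expression value. Another 8 protein-coding genes of these names (H2AC7, H2AC16, H2AC17, H2BC15, H3C4, H3C12, H3C14 and H3C15) had no named probe set and were not analysed here. Histone cluster 1 on chromosome 6 held 49 of the 61 genes, cluster 2 on chromosome 1 held 9, cluster 3 held 2 and the last gene, H4C16, lies on chromosome 12.

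These genes are switched on as cells enter S phase, when the cyclin E and CDK2 kinase acts on NPAT, a coactivator that gathers at the histone gene clusters. Their transcripts lack introns and end in a stem-loop, bound by SLBP, in place of a poly(A) tail. H2A, H2B, H3 and H4 form the nucleosome core, around which DNA is wound, and H1 binds the linker DNA between nucleosomes. Many copies of each gene encode the same or nearly the same protein, so the cell's supply is the sum of many loci. The KDM4 enzymes are histone demethylases that remove methyl groups from lysine residues of histone H3, a product of some of the genes described here.

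The study measured total RNA of Rh30 and Rh41, established human alveolar rhabdomyosarcoma cell lines, on 20 Affymetrix Clariom S arrays. Rh30 cells carried a control hairpin or a KDM4B hairpin for 72 h (2 arrays each), or a control siRNA or a KDM4C siRNA for 72 h (2 arrays each). Rh30 and Rh41 cells, without a knockdown, were given DMSO or 200 nM QC6352, a small-molecule KDM4 inhibitor, for 48 h (3 arrays per line and treatment). All cells grew in RPMI medium. The labels call the arrays of a group biological replicates. How many hairpin or siRNA sequences were used, and whether transduced cells were selected, the sources used here do not say.

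The promoters are shown first because the 5 classes carry different ones, and the 8 genes printed are those on which the comparisons turn. Each sequence is the 250 bases before the RefSeq start of the gene (GRCh38.p14), read 5′ to 3′ on the gene's own strand. Capitals mark every match, on either strand, to the octamer core TTTGCAT, the TATA box TATAAA, the CCAAT box CCAAT and the H4 site core GGTCCG. Of the 61 genes, 57 had an entry in the RefSeq promoter table (not H2AC12, H3C11, H4C1 and H4C3). Adjacent motifs that overlap run together in capitals, which happened at 3 places over the 57 promoters.
H1-2, chr6:26056471-26056720, minus strand: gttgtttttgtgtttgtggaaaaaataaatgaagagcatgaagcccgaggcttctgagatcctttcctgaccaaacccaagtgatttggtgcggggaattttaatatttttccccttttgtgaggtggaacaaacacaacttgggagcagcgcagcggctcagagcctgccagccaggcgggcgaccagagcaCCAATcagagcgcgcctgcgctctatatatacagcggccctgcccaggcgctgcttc
H3C1, chr6:26020201-26020450, plus strand: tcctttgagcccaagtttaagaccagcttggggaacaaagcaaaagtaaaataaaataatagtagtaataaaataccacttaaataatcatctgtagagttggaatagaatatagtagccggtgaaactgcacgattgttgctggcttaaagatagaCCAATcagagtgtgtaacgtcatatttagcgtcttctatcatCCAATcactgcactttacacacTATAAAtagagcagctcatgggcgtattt
H2AC8, chr6:26216671-26216920, plus strand: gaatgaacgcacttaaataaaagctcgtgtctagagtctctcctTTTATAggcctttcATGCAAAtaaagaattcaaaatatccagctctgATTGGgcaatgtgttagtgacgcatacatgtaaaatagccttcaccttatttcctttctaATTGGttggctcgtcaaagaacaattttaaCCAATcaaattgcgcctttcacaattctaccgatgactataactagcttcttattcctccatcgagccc
H2AC11, chr6:27132793-27133042, plus strand: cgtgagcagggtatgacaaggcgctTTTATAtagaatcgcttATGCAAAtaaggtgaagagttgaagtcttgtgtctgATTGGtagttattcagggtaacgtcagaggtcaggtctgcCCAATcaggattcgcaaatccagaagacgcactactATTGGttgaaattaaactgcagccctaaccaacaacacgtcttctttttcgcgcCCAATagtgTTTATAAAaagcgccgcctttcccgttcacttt
H2BC12, chr6:27146859-27147108, minus strand: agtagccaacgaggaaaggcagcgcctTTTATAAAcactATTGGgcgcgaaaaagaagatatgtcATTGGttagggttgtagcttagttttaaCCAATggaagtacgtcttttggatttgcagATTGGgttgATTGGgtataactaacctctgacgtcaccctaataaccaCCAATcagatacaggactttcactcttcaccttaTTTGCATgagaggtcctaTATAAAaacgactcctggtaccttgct
H2BC14, chr6:27814772-27815021, plus strand: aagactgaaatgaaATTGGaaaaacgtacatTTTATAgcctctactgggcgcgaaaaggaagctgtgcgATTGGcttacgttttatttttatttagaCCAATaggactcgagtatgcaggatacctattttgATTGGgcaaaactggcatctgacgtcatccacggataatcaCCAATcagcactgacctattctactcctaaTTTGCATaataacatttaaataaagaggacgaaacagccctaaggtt
H4C14, chr1:149832407-149832656, plus strand: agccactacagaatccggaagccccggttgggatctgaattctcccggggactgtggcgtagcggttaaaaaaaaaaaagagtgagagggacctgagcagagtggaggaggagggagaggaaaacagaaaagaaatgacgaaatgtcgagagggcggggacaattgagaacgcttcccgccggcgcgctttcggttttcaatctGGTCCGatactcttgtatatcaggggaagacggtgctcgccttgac
H4C16, chr12:14771132-14771381, minus strand: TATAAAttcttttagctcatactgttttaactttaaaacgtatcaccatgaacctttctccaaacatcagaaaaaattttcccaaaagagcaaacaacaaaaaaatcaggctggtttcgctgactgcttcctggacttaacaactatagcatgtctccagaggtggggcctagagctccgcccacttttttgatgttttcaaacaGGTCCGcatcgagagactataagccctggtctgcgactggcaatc

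H1-2 encodes a linker histone and H3C1 a replication-coupled H3. H2AC8 had the largest measured difference with QC6352 in Rh30, H2AC11 and H2BC12 differed most between the lines, H2BC14 had the largest in Rh41, H4C14 stands for the H4 genes that fell together, and H4C16 for the H4 genes that did not pass the test in either line. The octamer core was found in 14 of 17 H2B and 8 of 13 H2A promoters and in no H1, H3 or H4 promoter, against 3.98% of the 27305 promoters of all genes. The H4 site core was in 12 of 13 H4 promoters (not that of H4C7), in 1 promoter each of H2A (H2AC20), H2B (H2BC21) and H3 (H3C7), in none of H1, and in 9.33% of all promoters. H2AC20 and H2BC21 lie back to back with 235 bases between their starts, so their windows overlap. The windows of 8 such H2A and H2B pairs overlap, and a match there can count for both genes. A CCAAT box was in every H1, H2A, H2B and H3 promoter read but in only 3 of 13 H4 promoters, against 33.0% of all. TATAAA was in 39 of the 57, against 11.1% of all. A match is a description of the letters and not a measured binding site.

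Signals are log2 values as deposited, and a difference of 1 is a 2-fold difference in signal. A gene was called when its adjusted p in limma was under 0.05 over all 17687 genes, and ± after a difference is its standard error in that fit. For 10 Rh30 arrays, those of the siRNA, DMSO and QC6352 groups, the sample name on the first line of the description points to another group than the title. The title, source name, treatment and second description line give 1 group and were followed. The number of histone genes called in each comparison is also given with groups taken from the sample name. So are the values of the named genes that reversed with QC6352 in Rh30. Most values of single genes and class medians are given by title only. Replicate 2 of the KDM4C siRNA group has shRNA in its title and siKDM4C in every other such label. The arrays of the hairpin groups and of Rh41 carry no such conflict. Over all genes, array medians were 6.70 to 6.73 in the siRNA groups, 6.92 to 6.96 in the other Rh30 arrays and 7.20 to 7.23 in Rh41. Of the 23 background probe sets, the 95th percentile lay between 6.94 and 7.94 and the median between 3.64 and 4.01. The percentile was above the median of all genes on every array. A signal under it can therefore still lie above most background probe sets. The 61 genes are not all well separated from the background: 29 were below that percentile in every Rh30 DMSO array and 26 in every Rh41 DMSO array. The smallest values may hold little signal of the gene itself. Muscle markers were high, with array medians of 10.43 to 10.51 in Rh30 DMSO and 9.75 to 9.97 in Rh41 DMSO. Medians of epithelial, blood, endothelial and fibroblast markers over the 20 arrays ran from 4.14 to 6.88, although single markers moved with QC6352 in Rh30. CD68, a lysosomal protein used as a macrophage marker, was 6.79, 6.75 and 6.60 in DMSO and 10.36, 10.35 and 10.29 with QC6352, a rise of 3.62 ± 0.11, and rose by 1.31 ± 0.11 in Rh41. CLDN4 rose by 1.91 ± 0.13 in Rh30, TIE1 by 0.74 ± 0.10, CD3E by 0.50 ± 0.15 and COL1A1 by 0.40 ± 0.12, and PECAM1 fell by 1.03 ± 0.15. None of these 5 was called in Rh41. The median of the 8 muscle markers was 9.04 to 9.23 with QC6352 in Rh30, 9.51 to 9.76 with QC6352 in Rh41 and 9.80 to 9.93 with the KDM4B hairpin. With QC6352 in Rh30 the muscle factors MYOG fell by 2.63 ± 0.10, MYMK by 2.2 ± 0.16 and MYOD1 by 1.37 ± 0.12, and none of them was called in Rh41. The part of these markers in the histone results was not tested.

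In Rh30, QC6352 lowered 51 of the 61 histone genes and raised none. Over all genes 16.5% were called lower and 19.9% higher. A fall of at least 2-fold was called for 34 of the 61 against 4.23% of all genes. The median difference over the 61 was −1.08, against 0.05 over all genes. The median signal of the 61 was 7.83, 7.76 and 7.84 in the DMSO arrays and 6.23, 6.74 and 6.49 in the QC6352 arrays, so the groups did not overlap. In bulk samples, fewer cells in S phase and less histone RNA per cell cannot be told apart. With groups taken from the sample name, no histone gene was called, against 0.0452% of all genes called lower, and the median of the 61 was −0.03. In that grouping the median signals of the 61 were 7.07, 7.83 and 7.76 in the QC6352 arrays. They were 7.84 and 6.23 in the control siRNA arrays. CD68 was 6.60 and 10.36 in those control siRNA arrays. By title it was 6.60 to 6.79 in DMSO and 10.29 to 10.36 with QC6352. Array medians over all genes were 6.70, 6.95 and 6.96 in the QC6352 arrays by sample name and 6.92 to 6.96 by title. In these values the titled groups were alike within themselves, and the groups by sample name were mixed. Which label is right was not tested further, and every statement on this comparison therefore rests on the titles.

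**Figure D1:**
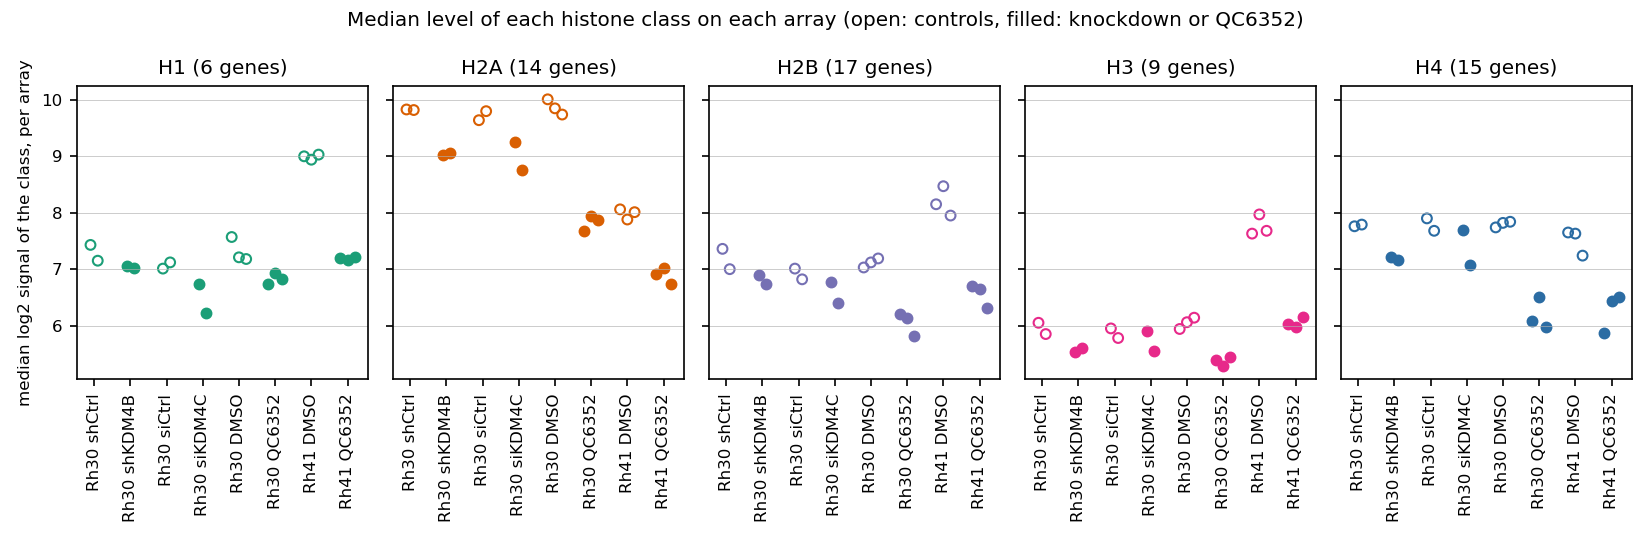
Median log2 signal of the H1, H2A, H2B, H3 and H4 genes in each of the 20 arrays, 1 point per array, open for controls and filled for knockdown or QC6352. In every class the QC6352 arrays lie below the DMSO arrays of the same line, with H2A medians of 9.74 to 10.01 in Rh30 DMSO and 7.68 to 7.95 in Rh30 QC6352.

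Class medians in Rh30 are given as a description, since the difference between classes was not tested. The 15 H4 genes had a median difference of −2.24, with 12 called. The 17 H2B genes had a median of −1.20 with 16 called, and the 14 H2A genes −0.99 with 13 called. The 9 H3 genes had a median of −0.67 with 7 called, and the 6 H1 genes −0.60 with 3 called. The order was another one among the brighter genes. Over the 28 genes above 8 in the control hairpin arrays, the medians were −2.83 for H1 (2 genes), −2.77 for H3 (4), −2.70 for H4 (6), −2.37 for H2B (6) and −0.99 for H2A (10). The ranges of the classes overlapped: H4 ran from −3.02 to 0.06 and H2A from −3.95 to −0.37.

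Among the H2A genes, H2AC8 had signals of 11.92, 11.89 and 11.79 in DMSO and 7.62, 8.11 and 8.03 with QC6352. It fell by 3.95 ± 0.12, 15.5-fold (adjusted p = 4.64e-14), the largest measured difference of the 61. Genes whose QC6352 signals are at background cannot be ranked against it. H2AC11 went from 12.28, 12.22 and 12.09 to 9.18, 9.17 and 9.16, a difference of −3.03 ± 0.12 (adjusted p = 5.48e-13). For both genes every DMSO array was far above every QC6352 array. H2AC4 fell by 2.65 ± 0.14, and H2AC1, a testis H2A gene with signals of 4.59 to 4.95 in DMSO, by 0.37 ± 0.12.

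Among the H2B genes, H2BC8, which shares a promoter region with H2AC8, had 10.75, 10.79 and 10.52 in DMSO and 7.26, 7.37 and 7.47 with QC6352, a difference of −3.32 ± 0.11 (adjusted p = 1.76e-13). H2BC11 went from 10.04, 10.01 and 9.87 to 6.67, 7.21 and 6.81, a difference of −3.07 ± 0.14. Both were far outside the spread of their controls. H2BC12 had 13.13, 13.13 and 13.06 in DMSO, among the brightest probe sets of the class, and 10.42, 10.77 and 10.49 with QC6352. H2BC14 was called with a difference of −0.61 ± 0.20 (adjusted p = 0.0244), but its arrays overlapped: 5.28, 5.99 and 5.87 in DMSO against 4.69, 5.52 and 5.11. Its call was lost without DMSO replicate 2 (−0.47), DMSO replicate 3 (−0.53), QC6352 replicate 1 (−0.40) or QC6352 replicate 3 (−0.61).

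Among the H3 genes, H3C11 had 10.53, 10.60 and 10.60 in DMSO and 7.71, 7.28 and 7.36 with QC6352, a difference of −3.12 ± 0.14 (adjusted p = 3.82e-12). H3C1 went from 8.53, 8.44 and 8.50 to 5.42, 5.73 and 5.51, a difference of −2.94 ± 0.11. The QC6352 signals of H3C1 lay under the 95th percentile of the background probe sets. H3C13, an H3 gene of cluster 2, fell by 0.42 ± 0.15 (adjusted p = 0.0289).

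Nearly all H4 genes encode the same protein. H4C15 had 11.61, 11.52 and 11.41 in DMSO and 8.54, 8.49 and 8.45 with QC6352, a difference of −3.02 ± 0.15 (adjusted p = 1.16e-11). H4C14 went from 11.66, 11.51 and 11.49 to 8.58, 8.70 and 8.61, a difference of −2.92 ± 0.14. These near-identical neighbours of cluster 2 differed by at most 0.209 in any array, and their probe sets may read the same transcripts. H2AC18 and H2AC19, another near-identical pair, differed by at most 0.206. H4C5, an H4 gene of cluster 1 with 12.88, 12.94 and 12.88 in DMSO, fell by 2.78 ± 0.10 to 10.21, 10.22 and 9.93.

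The linker histones split. H1-2 had 10.24, 10.34 and 10.01 in DMSO and 6.89, 7.21 and 7.33 with QC6352, a difference of −3.05 ± 0.13 (adjusted p = 1.88e-12). H1-4 went from 12.79, 12.79 and 12.81 to 9.92, 10.42 and 10.23, a difference of −2.61 ± 0.13. H1-5 fell by 1.05 ± 0.17 (adjusted p = 4.61e-05). In contrast H1-3 had 7.32, 6.74 and 6.85 in DMSO and 7.06, 6.79 and 6.62 with QC6352, a difference of −0.15 ± 0.17 (adjusted p = 0.565) with overlapping arrays. The testis linker histone H1-6 (−0.02 ± 0.14) and H1-1 (0.03 ± 0.14) were not called, and their arrays overlapped as well.

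The other genes not called in Rh30 were H2AC25 (−0.41 ± 0.16), the testis gene H2BC1 (−0.40 ± 0.17), H3C3 (−0.10 ± 0.16), H3C10 (−0.12 ± 0.16), H4C6 (−0.19 ± 0.19), H4C7 (0.06 ± 0.18) and H4C16 (−0.07 ± 0.12). The 10 genes not called had mean DMSO signals of 3.50 to 6.97, under or near the 95th percentile of the background probe sets. When the 61 were split by their signal in the control hairpin arrays, which enter no drug comparison, all 28 above 8 were called in Rh30, with a median of −2.57. Of the 33 up to 8, 23 were called, with a median of −0.78. In QC6352 arrays 41 of the 61 lay under the 95th percentile of the background probe sets in every Rh30 array, where the signal may give only an upper limit for the gene. All 7 genes with a gene model over 1000 bases (H2BC4, H2BC5, H2BC12, H2BC18, H2BC21, H3C6 and H4C15), some of which can also give a polyadenylated transcript, were called in Rh30, with a median of −2.05 against −1.04 over the other genes. All of them but H2BC4 and H3C6 were above 8 in the control hairpin arrays, and the part of signal level in this gap was not tested. That gap was not seen elsewhere: the medians were −0.92 and −0.84 with QC6352 in Rh41 (6 of the 7 called), −0.27 and −0.41 with the hairpin (none called) and −0.35 and −0.38 with the siRNA (none called).

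**Figure D2:**
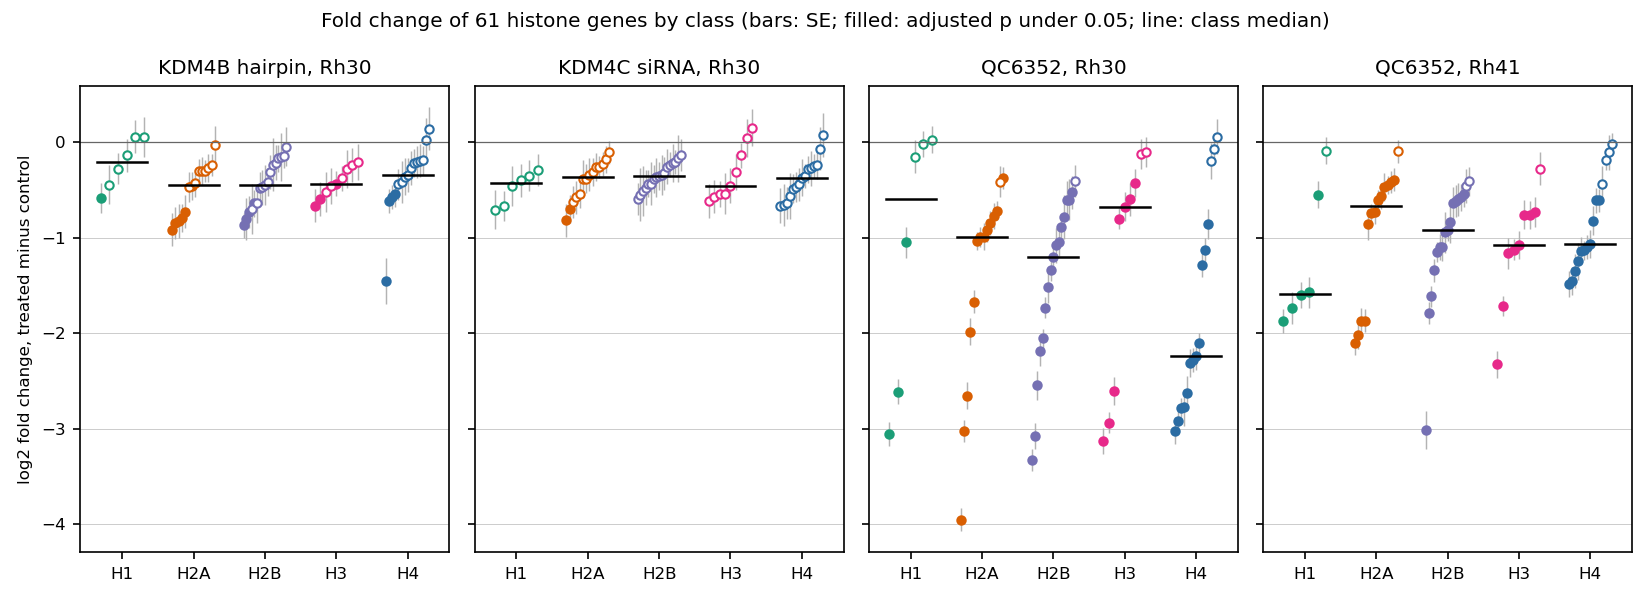
Log2 difference of each of the 61 histone genes in 4 comparisons, by class, with its standard error; filled points were called and lines are class medians. The QC6352 panels reach −3.95 in Rh30 and −3.01 in Rh41, while the hairpin panel reaches −1.45 and the siRNA panel −0.82.

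In Rh41, QC6352 lowered 52 of the 61 and raised none, against 8.8% of all genes called lower and 10.9% called higher. A fall of at least 2-fold was called for 28, against 1.45% of all genes. The median over the 61 was −0.86, against 0.02 over all genes. The median signal of the 61 was 8.14, 8.06 and 7.95 in DMSO and 6.85, 6.91 and 6.74 with QC6352. The labels of these 6 arrays do not conflict, but the spread comes from all arrays: grouped by sample name, the same arrays gave 30 calls, all lower, against 3.84% of all genes lower and 4.85% higher, and a fit of the Rh41 arrays alone gave 51. The arrays of the 2 groups did not overlap for 54 of the 61, against 18.3% of all genes. In Rh30 that held for 49, against 19.5%.

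In Rh41 the H1 genes had a median of −1.58 with 5 of 6 called, H3 −1.08 with 8 of 9, H4 −1.06 with 11 of 15, H2B −0.92 with 15 of 17, and H2A −0.66 with 13 of 14. Over the genes above 8 in the control hairpin arrays these medians were −1.73, −1.40, −1.24, −1.10 and −0.58, and class differences were again not tested. Those arrays are of Rh30, so these genes are not the brighter genes of Rh41. They include H2AC11, H2AC12 and H2AC13, with Rh41 DMSO means of 6.13, 7.18 and 7.23. They leave out others such as H1-5 (11.13) and H2BC9 (10.86). H2BC14 had 8.92, 8.72 and 8.95 in DMSO and 5.83, 5.71 and 6.02 with QC6352, a difference of −3.01 ± 0.20 (adjusted p = 7.21e-09), the largest measured in this line. H3C11 went from 10.33, 10.32 and 10.15 to 7.66, 8.15 and 8.02, a difference of −2.32 ± 0.14. H2AC8 had 11.21, 11.30 and 11.12 in DMSO and 8.97, 9.18 and 9.16 with QC6352, a difference of −2.10 ± 0.12. In each of these genes every QC6352 array was below every DMSO array.

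The linker histones H1-2 and H1-3 both fell in Rh41. H1-2 had 9.03, 9.0 and 9.12 in DMSO and 7.11, 7.24 and 7.17 with QC6352, a difference of −1.87 ± 0.13 (adjusted p = 8.24e-09). H1-3 went from 8.97, 8.88 and 8.95 to 7.26, 7.08 and 7.25, a difference of −1.73 ± 0.17 (adjusted p = 8.05e-07). H1-4 fell by 1.60 ± 0.13 and H1-5 by 1.57 ± 0.17. H1-6 fell by 0.55 ± 0.14 (adjusted p = 0.00802), a call lost without QC6352 replicate 3 (−0.44, adjusted p = 0.0557). H1-1 had a difference of −0.09 ± 0.14 (adjusted p = 0.769).

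H4C14 fell by 1.48 ± 0.14 in Rh41, H4C15 by 1.45 ± 0.15, H3C1 by 1.71 ± 0.11, H2BC8 by 1.78 ± 0.11 and H2AC4 by 2.02 ± 0.14. The genes not called in Rh41 were H1-1, H2AC1, H2BC12, H2BC13, H3C8, H4C6, H4C7, H4C13 and H4C16. H2BC12 had 8.14, 8.47 and 7.95 in DMSO and 8.12, 7.72 and 7.50 with QC6352, a difference of −0.41 ± 0.15 (adjusted p = 0.0661) with overlapping arrays. H2BC1 was called in Rh41 (−0.61 ± 0.17, adjusted p = 0.0122) although its arrays overlapped, and the call was lost without DMSO replicate 1 (−0.53), DMSO replicate 3 (−0.51), QC6352 replicate 1 (−0.56) or QC6352 replicate 3 (−0.51). Called in both lines were 46 of the 61, in Rh30 and not in Rh41 5, in Rh41 and not in Rh30 6, and in neither line 4 (H1-1, H4C6, H4C7 and H4C16). Over all genes 5.47% were called lower in both lines. A fall of at least 2-fold was called in both lines for 24, against 0.837% of all genes.

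The response itself was compared between the lines as the QC6352 difference in Rh41 minus that in Rh30. It was higher, a smaller fall in Rh41, for 26 of the 61 and lower, a larger fall in Rh41, for 3, against 10.5% and 9.45% of all genes. The median over the 61 was 0.34, against −0.03 over all genes. H4 genes made up 11 of the 26, and 13 of the 15 H4 genes fell less in Rh41, with a class median of 1.18. H2B gave 6 higher and 1 lower with a median of 0.34, H2A 4 and none with 0.29, H3 3 and 1 with −0.08, and H1 2 and 1 with −0.32. Grouped by sample name the direction turned: 9 were lower and none higher, against 3.14% and 1.17% of all genes, and the median was −0.92.

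H2AC11 had the largest response difference, 2.61 ± 0.16 (adjusted p = 5.58e-09). In Rh41 it went from 6.15, 5.99 and 6.26 to 5.71, 5.81 and 5.64, a difference of −0.41 ± 0.12 (adjusted p = 0.0158), against −3.03 in Rh30. This small fall in Rh41 was not called without DMSO replicate 3 (−0.35) or QC6352 replicate 3 (−0.38), and the gene's signals in Rh41 lay under the 95th percentile of the background probe sets already in DMSO. H2BC12 had a response difference of 2.14 ± 0.21 (adjusted p = 9.58e-07). By sample name these differences were −0.32 for H2AC11 and −0.44 for H2BC12.

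The 3 genes that fell more in Rh41 were H2BC14, H1-3 and H3C10. Their response differences were −2.40 ± 0.29 for H2BC14 (adjusted p = 9.08e-06), −1.59 ± 0.24 for H1-3 (adjusted p = 0.000121) and −1.04 ± 0.23 for H3C10 (adjusted p = 0.00292). H3C10 had 6.90, 6.22 and 6.78 in Rh41 DMSO and 5.29, 5.38 and 5.75 with QC6352, and 5.43, 5.54 and 5.45 against 5.39, 5.21 and 5.45 in Rh30. All 3 had higher DMSO signals in Rh41 than in Rh30. In Rh30 they lay under the 95th percentile of the background probe sets (7.80 to 7.90) in every DMSO array, and H3C10 lay under it in Rh41 as well. A fall can be read less well there, but falls were still called. Of the 29 genes under it in every Rh30 DMSO array, 19 were called lower in Rh30, against 16.5% of all genes. The part of low signal in these response differences was not tested.

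**Figure D3:**
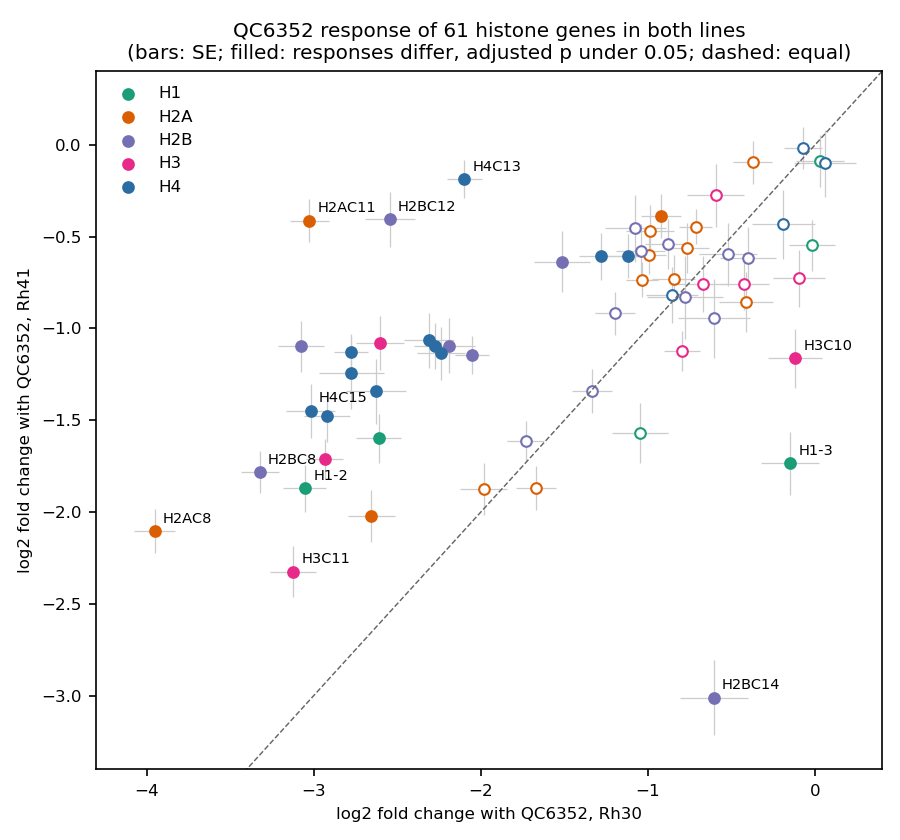
QC6352 minus DMSO in Rh30 (horizontal) and in Rh41 (vertical), in log2 units, 1 point per histone gene, coloured by class; filled points had responses that differed between lines and the dashed line marks equal responses. Most H4 genes lie above the line, and H2BC14 (−0.61 and −3.01) and H1-3 (−0.15 and −1.73) lie far below it.

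Across the 61 genes the differences in the 2 lines, whose arrays are separate, had a Pearson r of 0.526 and a Spearman rho of 0.551, against 0.527 and 0.432 across all genes. Of the 61, 42 fell more in Rh30. Within the 15 H4 genes r was 0.858. These correlations are across genes that share signal range and cluster position, each read by the same probe set in both lines. They are descriptions.

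In DMSO the lines differed in most of the histone genes. Of the 61, 25 were lower and 20 higher in Rh41, against 16.8% and 40.7% of all genes, with a median of −0.09 against 0.19. The array medians of all genes were themselves 0.256 higher in Rh41; with each array centred on its median, 31 genes were lower and 13 higher, and after quantile normalization 28 and 12. Grouped by sample name, 11 were lower and 22 higher, against 9.62% and 52.2% of all genes. By class, the counts lower and higher were 9 and 4 of 14 for H2A, 9 and 1 of 15 for H4, 3 and 7 of 17 for H2B, 2 and 5 of 9 for H3 and 2 and 3 of 6 for H1.

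H2AC11 and H2BC12 were the most lowered in Rh41. H2AC11 was 12.28, 12.22 and 12.09 in Rh30 and 6.15, 5.99 and 6.26 in Rh41, a difference of −6.06 ± 0.12 (adjusted p = 5.46e-18). Its Rh41 signals lay under the 95th percentile of the background probe sets in all 3 DMSO arrays, and set against that percentile the gene was at least 21.3-fold higher in Rh30. H2BC12 was 13.13, 13.13 and 13.06 against 8.14, 8.47 and 7.95, a difference of −4.92 ± 0.15. Both genes belong to cluster 1, and no other histone gene differed by as much. H4C13 followed with −3.09 ± 0.10, from 7.18, 7.18 and 7.35 to 4.15, 4.01 and 4.27.

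The genes highest in Rh41 relative to Rh30 were H1-5, a linker histone, and H3C7. H1-5 was 7.83, 7.61 and 7.51 in Rh30 and 11.26, 11.09 and 11.03 in Rh41, a difference of 3.48 ± 0.17 (adjusted p = 1.97e-12). H3C7 was 5.94, 6.06 and 6.14 against 9.54, 9.41 and 9.36, a difference of 3.39 ± 0.11. H2BC9 (3.20 ± 0.12), H2BC14 (3.15 ± 0.20) and H2BC26 (3.12 ± 0.22) were of like size. Of these 5, H1-5, H2BC9 and H2BC26 fell with QC6352 in both lines with responses not called different, and so did H3C7 (−0.80 in Rh30 and −1.12 in Rh41).

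**Figure D4:**
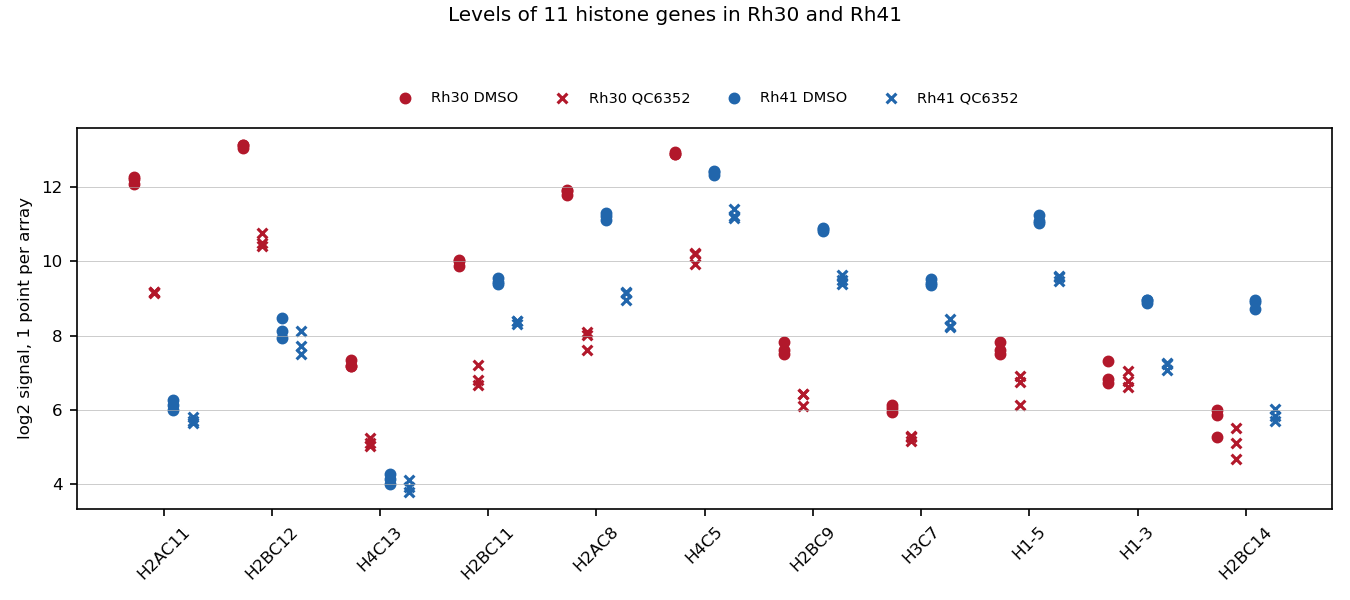
Log2 signal of 11 histone genes in Rh30 and Rh41 with DMSO or QC6352, 1 point per array. H2AC11 and H2BC12 are brighter in Rh30, H1-5, H3C7, H2BC9 and H2BC14 are brighter in Rh41, and H2AC8 and H4C5 fall from like signals in both lines.

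In 8 places an H2A and an H2B gene start back to back, with 214 to 247 bases between their starts, and share the sequence between them. With QC6352 in Rh30 the partners moved by like amounts, with a median difference within a pair of 0.17: −3.95 for H2AC8 and −3.32 for H2BC8, −3.03 for H2AC11 and −3.07 for H2BC11, −0.99 for H2AC13 and −1.08 for H2BC13. In Rh41 the median difference within a pair was 0.49, and in DMSO between the lines 1.12. H2AC11 and H2BC11 had nearly the same fall in Rh30, yet between lines in DMSO H2AC11 was −6.06 and H2BC11 −0.51. H2AC14 and H2BC14 were −0.68 and 3.15 between lines, and −0.73 and −3.01 with QC6352 in Rh41. The partners printed above as H2AC11 and H2BC14 thus parted from their neighbours in these comparisons. Both windows hold an octamer core, a TATA box and CCAAT boxes. Each window also covers the whole sequence shared with the neighbour, so the presence of these motifs cannot tell the partners apart. The part of the motifs in these differences was not tested.

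Genes with and without a motif had overlapping falls within a class. In Rh30, H2A genes with an octamer core had a median of −1.26 (8 genes) and those without −0.99 (5 genes). For H2B it was −1.27 with (14 genes) and −1.08 without (3 genes). In Rh41 the order turned, with −0.65 and −0.73 for H2A and −0.87 and −0.94 for H2B. The H4 site core was in the promoters of H4C14, which fell by 2.92, and of H4C16, which was at −0.07 ± 0.12 in Rh30 and −0.02 ± 0.12 in Rh41. The signals of H4C16 were 4.55, 4.46 and 4.56 in Rh30 DMSO, and 6.07, 5.67 and 6.08 in Rh41 DMSO, all under the 95th percentile of the background probe sets. H4C7, without that core, was likewise near the background, at 3.27 to 3.93 in the DMSO arrays.

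With the KDM4B hairpin, 18 of the 61 were lower and none higher, against 6.31% and 5.26% of all genes. The median over the 61 was −0.41, against 0.03 over all genes, and 57 of the 61 differences were below 0. The median signal of the 61 was 7.77 and 7.79 in the control hairpin arrays and 7.28 and 7.16 with the KDM4B hairpin. KDM4B itself was 6.74 and 7.30 in the control and 6.01 and 6.15 with the hairpin, a difference of −0.94 ± 0.23 (adjusted p = 0.012), a call lost without control replicate 2 or without either hairpin array. In every array of both groups KDM4B lay under the background percentile used above. Such signals may hold little of the gene itself. With QC6352, KDM4A rose by 0.49 ± 0.10 in Rh30 and 0.51 ± 0.10 in Rh41. KDM4D fell by 0.80 ± 0.23 and 0.95 ± 0.23, and KDM4B, KDM4C and KDM4E were not called in either line. The fall of KDM4D in Rh30 was not called without DMSO replicate 2 (−0.65, adjusted p = 0.0557). With the KDM4B hairpin KDM4D went the other way, from 4.23 and 4.75 to 5.09 and 5.78, a called rise of 0.94. That rise was 0.68 without control replicate 1 and 0.60 without hairpin replicate 2. All KDM4D signals in these comparisons lay under the background percentile as well. Medians by class were −0.45 for H2B (4 of 17 called), −0.44 for H2A (6 of 14), −0.43 for H3 (3 of 9), −0.34 for H4 (4 of 15) and −0.21 for H1 (1 of 6). These medians lay close together beside the spread of the genes within each class.

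The hairpin lowered H4C1 most. H4C1 was 7.86 and 7.86 in the control and 6.42 and 6.40 with the hairpin, a difference of −1.45 ± 0.24 (adjusted p = 0.000442). H2AC15 went from 6.93 and 6.69 to 5.76 and 6.05, a difference of −0.91 ± 0.17, and H2BC7 from 7.77 and 7.93 to 6.89 and 7.07, a difference of −0.87 ± 0.13. H2AC21 fell by 0.85 ± 0.17, H2BC13 by 0.80 ± 0.22, H3C11 by 0.66 ± 0.17, H4C13 by 0.61 ± 0.13, H3C2 by 0.59 ± 0.18 and H1-2 by 0.58 ± 0.16. H4C16, at −0.07 with QC6352 in Rh30, was called with the hairpin (−0.54 ± 0.14, adjusted p = 0.0168). Its signals were 4.7 and 4.9 in the control and 4.29 and 4.22 with the hairpin. All lay under the background percentile used above, so they may hold little signal of the gene itself. The calls of H4C16, H1-2, H2BC13, H3C11 and H3C2 did not hold in every fit with an array left out. H2AC8 was not called with the hairpin (−0.43 ± 0.15, adjusted p = 0.0685).

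The groups of 2 hairpin arrays did not overlap for 51 of the 61, all lower with the KDM4B hairpin, against 22.9% of all genes. Of the 18 called, 17 were also called with QC6352 in Rh30 (of 51) and 15 in Rh41 (of 52), and with so many called by the drug a large overlap follows from the counts. Over all genes 38.4% and 15.8% of the 1116 lowered by the hairpin were also lowered by the drug in Rh30 and Rh41. Without 1 array the calls were 8 (control replicate 1), 15 (control replicate 2), 9 (hairpin replicate 1) and 9 (hairpin replicate 2). H2AC6, H2AC15, H2AC21, H2BC7, H4C1 and H4C13 were called in each of these 4 fits. The hairpin arrays alone gave 10 calls, and grouping the other Rh30 arrays by sample name gave none, against 2.69% of all genes called lower, since those arrays enter the estimate of the spread.

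With the KDM4C siRNA, 2 of the 61 were lower, H2AC4 and H2AC8, and none higher, against 0.192% and 0.266% of all genes. H2AC4 was 9.42 and 9.49 with the control siRNA and 8.83 and 8.45 with the KDM4C siRNA, a difference of −0.82 ± 0.17 (adjusted p = 0.044). H2AC8 was 12.28 and 12.12 against 11.64 and 11.36, a difference of −0.70 ± 0.15 (adjusted p = 0.0432). Both calls were lost without either control array or without KDM4C siRNA replicate 2, with an adjusted p of 0.148 to 0.395. H1-2 came next (−0.67 ± 0.16, adjusted p = 0.0615). KDM4C itself was 6.48 and 6.54 in the control and 6.25 and 6.32 with the siRNA. The difference was −0.23 ± 0.19 (adjusted p = 0.651), so a lower level of its transcript was not called. All these signals lay under the background percentile used above, where a fall can be read less well. The missing call therefore does not decide whether KDM4C was lowered.

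The median of the 61 with the siRNA was −0.37, against 0.02 over all genes. The groups did not overlap for 55 genes, all lower, against 16.5% of all genes. Class medians ran from −0.45 (H3) to −0.35 (H2B). The 2 KDM4C siRNA arrays were apart from each other: replicate 2 was below replicate 1 for 50 of the 61, and their medians were 7.69 and 7.07 against 7.90 and 7.68 in the controls. The median difference from the control mean was −0.21 in replicate 1 and −0.50 in replicate 2. Without replicate 1, 23 of the 61 were called, and without replicate 2 none; calls over all genes moved too, to 10.1% and 0.0509%. Grouped by sample name none was called, and no gene of the array was. With groups as titled, 31 of the 61 had an unadjusted p under 0.05 with the siRNA, against 13.8% of all genes, and 34 with the hairpin, against 23.3%.

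The genes known to drive histone gene transcription and to process its mRNA moved in both directions with QC6352. Grouped by sample name, QC6352 in Rh30 called none of these genes, of the chaperones, variants or G2/M genes described next, and 1 S phase gene. With groups as titled, QC6352 in Rh30 lowered 5 and raised 9 of 27 such genes, with a median of 0.14, and in Rh41 it lowered 4 and raised 6, with a median of 0.02. Over all genes 16.5% were called lower and 19.9% higher in Rh30, and 8.8% and 10.9% in Rh41. CPSF3, the nuclease that cuts histone pre-mRNA and other pre-mRNAs, was 8.92, 8.97 and 9.09 in Rh30 DMSO and 6.10, 6.42 and 6.87 with QC6352, a difference of −2.53 ± 0.14 (adjusted p = 5.08e-11), and fell by 1.60 ± 0.14 in Rh41. HINFP, the factor that binds the H4 site and singled out here after its values were seen, was 9.02, 9.08 and 8.99 against 8.04, 8.21 and 8.08, a difference of −0.92 ± 0.09, and fell by 0.37 ± 0.09 in Rh41.

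SLBP was 8.65, 8.37 and 8.14 in Rh30 DMSO and 9.02, 8.78 and 8.54 with QC6352, 0.39 ± 0.20 (adjusted p = 0.13), and 0.02 ± 0.20 in Rh41. NPAT was at −0.06 ± 0.19 in each line. CDC25A, the phosphatase that activates CDK2, rose by 1.41 ± 0.11 in Rh30 and 0.41 ± 0.11 in Rh41, and CCNE2, a cyclin E, by 1.26 ± 0.13 and 0.53 ± 0.13. With the KDM4B hairpin CCNE2 fell by 0.89 ± 0.16, and with the KDM4C siRNA it rose by 0.90 ± 0.16. In the list the hairpin lowered 5 and raised none, against 6.31% and 5.26% of all genes, and the siRNA raised 1, against 0.266%.

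**Figure D5:**
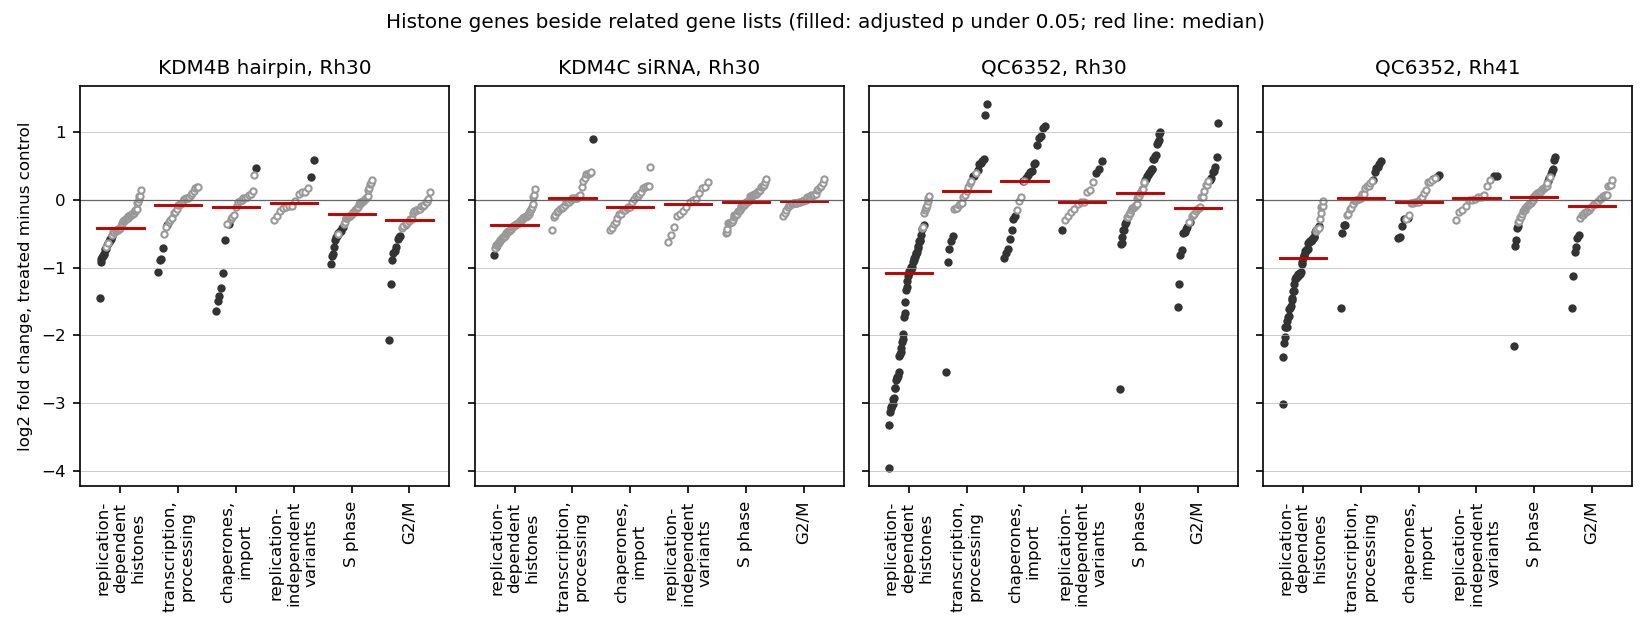
Log2 differences of the 61 histone genes beside 5 lists of related genes in 4 comparisons, 1 point per gene. With QC6352 in Rh30 the histone median of −1.08 lies below that of the transcription and processing list (0.14), the chaperones (0.28), S phase genes (0.11) and G2/M genes (−0.12).

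Genes of DNA replication are active in the same phase of the cell cycle as the histone genes. Of 47 S phase genes, QC6352 lowered 8 and raised 18 in Rh30 (median 0.11) and lowered 5 and raised 7 in Rh41 (median 0.05). The KDM4B hairpin lowered 13 and raised none (median −0.20). Over all genes, QC6352 lowered 16.5% and raised 19.9% in Rh30, and 8.8% and 10.9% in Rh41. The hairpin lowered 6.31% and raised 5.26%. The share of S phase genes lowered by QC6352 was near that of all genes in each line. The array medians of this list were 9.39 to 9.49 in Rh30 DMSO and 9.41 to 9.55 with QC6352. RPA3, a subunit of the single-strand binding complex, fell by 2.79 ± 0.16 in Rh30 and 2.16 ± 0.16 in Rh41, whereas CLSPN, a checkpoint adaptor, rose by 1.00 ± 0.11 and 0.39 ± 0.11, and the clamp loader subunit RFC5 by 0.97 ± 0.08 and 0.29 ± 0.08. Of 30 G2/M genes, 9 fell and 7 rose in Rh30 (median −0.12), 6 fell and none rose in Rh41 (median −0.09), and 10 fell with the hairpin (median −0.30). Among them ASPM fell by 1.58 ± 0.12 in Rh30, and HMMR by 1.23 ± 0.12 there and by 2.07 ± 0.15 with the hairpin, while the mitotic motor CENPE rose by 1.14 ± 0.12 in Rh30 and was not called in Rh41 (−0.19 ± 0.12). The siRNA called no gene of these S phase and G2/M lists. The part of the cell cycle in the histone results was not tested.

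Of 23 histone chaperones and import factors, 7 fell and 12 rose with QC6352 in Rh30 (median 0.28), and 5 fell and 3 rose in Rh41. TONSL, a reader of newly made H4, rose by 1.09 ± 0.15 in Rh30, the chaperone subunit UBN1 by 1.06 ± 0.10 and the H3 and H4 chaperone ASF1B by 0.94 ± 0.10. With the hairpin 7 of the list fell, UBN1 by 1.30 ± 0.13, and 1 rose. Of 14 histone variants that are made outside S phase, 3 rose and 1 fell in Rh30: MACROH2A1 rose by 0.57 ± 0.09, H3-3B, which makes the replacement histone H3.3, by 0.46 ± 0.08, and H2AZ2 fell by 0.44 ± 0.10. In Rh41 2 rose and none fell. With the hairpin 2 rose and none fell, and H3-3B was one of them (0.58 ± 0.10). Of all genes, 16.5% fell and 19.9% rose with QC6352 in Rh30, and 8.8% and 10.9% in Rh41. The hairpin shares were 6.31% and 5.26%.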

How the data were processed

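The 61 genes and the related gene lists were chosen with earlier results of these data known. The authors deposited 1 log2 signal per probe set and array, with values from 2.22 to 14.22. Per the labels, 125 ng of RNA went through the Whole Transcript Plus assay. The submitters' processing notes name GCOS. Its version, how the signals were normalized, and the build of the genome were not given in the sources used here. Of 24351 probe sets, 17709 had 1 gene symbol and 6642 none or several. For each gene the probe set with the highest mean was kept, which left out 22. The 20 arrays were fitted together as 8 group means (12 residual degrees of freedom) with limma 3.58.1 in R 4.3.3, with Benjamini-Hochberg adjustment over 17687 genes. Arrays are the replicates, and their number limits the precision. The fit was tested on simulated data. Genes were named by rule: per comparison and class the 2 largest called changes without overlapping arrays, every H1 gene, every gene not called with QC6352 in Rh30, the 2 largest each way between lines, the 3 with the smallest p where fewer than 3 were called, and per related list the 3 largest called changes, with the KDM4 genes, SLBP and NPAT. Other genes were named after their values were seen. Alternatives were other normalizations, filters, variance models, a replicate block, groups by sample name, the compared arrays alone and each array left out.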

Additional observations from a re-analysis of the deposited data

Results flagged for a closer look

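The response to QC6352 differed between Rh30 and Rh41 by the test of the difference itself. A smaller fall in Rh41 passed the threshold for 26 of the 61 histone genes, 11 of them in the H4 class, and a larger fall in Rh41 for 3, against 10.5% and 9.45% of all genes. The response differences, Rh41 minus Rh30, were 2.61 for H2AC11, 2.14 for H2BC12, −2.40 for H2BC14, −1.59 for H1-3 and −1.04 for H3C10 (limma, 3 arrays per line and treatment). H2BC14, H1-3 and H3C10 lay under the 95th percentile of the background probe sets in every Rh30 DMSO array. H2AC11 and H3C10 did so in every Rh41 DMSO array. A fall can be read less well there, but falls were still called. Such genes were called lower for 19 of 29 in Rh30 and 18 of 26 in Rh41, against 16.5% and 8.8% of all genes. The part of low signal in the response differences was not tested. These differences rest on the titles of the Rh30 arrays.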

How the results depend on the processing

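Of the histone genes called, the counts held within 1.5 times under each alternative except the following. Grouping arrays by sample name gave 0 calls with the hairpin, 0 with the siRNA, 0 with QC6352 in Rh30, 30 with QC6352 in Rh41, 9 for the response difference, all lower, and 33 for DMSO between lines (11 lower, 22 higher). The medians then turned to −0.92 for the response difference and 0.10 for DMSO. With the hairpin, the compared arrays alone gave 10. With the siRNA, calls were 8 without the lowest 40% of genes, 15 with trend and robust, and 0 with array weights, with the compared arrays alone and with the replicate block. A block that crosses the numbers, chosen after seeing the data, gave 1. Leaving out each array in turn gave 8 to 15 calls for the hairpin, 0 to 23 for the siRNA, 46 to 50 and 46 to 51 for QC6352 in Rh30 and Rh41, 26 to 31 for the response difference and 41 to 43 for DMSO. Without the lowest 40% of genes, fewer histone genes are tested, and the median was −1.73 with QC6352 in Rh30, −1.09 in Rh41, 0.63 for the response difference and −0.50 for DMSO; the DMSO median was −0.35 with centred arrays and −0.29 after quantile normalization.

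The replicate block gave 14, 0, 51, 51, 28 and 47 calls in the 6 comparisons; same-numbered arrays correlated between −0.215 and 0.26, so the labels' numbers were not taken to pair them. By sample name these differences with QC6352 in Rh30 reversed: H2AC21 0.0228, H2BC7 0.25, H2BC13 0.46, H4C13 0.49, H2BC14 0.30, H2BC12 0.0373, H1-5 0.0636, ASPM 0.23, CENPE −0.33, KDM4D 0.70, KDM4A −0.0353, CLSPN −0.13, ASF1B −0.12, H3-3B −0.14 and H2AZ2 0.19. The response difference turned to −0.32 for H2AC11 and −0.44 for H2BC12. Low signals near the background probe sets limit what can be measured, and the cause of these shifts was not tested.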
